A study of Mus musculus with 14 samples.

Results

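The 10 genes described here are 4 dual-specificity phosphatases that switch off mitogen-activated protein kinases (Dusp1, Dusp4, Dusp5 and Dusp6), 3 inhibitors of receptor tyrosine kinase signalling (Spry2, Spry4 and Spred1) and 3 early response genes (Ier2, Sik1 and Btg2). They were found by symbol, and all 10 were present among the 36118 genes of the count table and passed the filter on low counts. The 4 that the results turn on are Dusp1 (ENSMUSG00000024190), Dusp4 (ENSMUSG00000031530), Dusp6 (ENSMUSG00000019960) and Spry2 (ENSMUSG00000022114). RNA-seq was performed on the hippocampus of 14 mice at postnatal day 15. Wild-type C57BL/6N mice kept in room air (WT-RA, n = 4) or in 85% O2 from postnatal day 1 to 14 (WT-O2, n = 4) were compared with gasdermin D knockout mice under the same exposures (KO-RA and KO-O2, n = 3 each). The knockout allele was a small CRISPR-made deletion in the fifth exon of Gsdmd, the gene of the pore-forming protein of pyroptosis, present in every tissue. WT mice were described as littermates.

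Extracellular signal-regulated kinase (ERK) is activated through growth factor receptors, Ras, Raf and MEK. Active ERK enters the nucleus and induces early response genes, and among the induced genes are its own inhibitors. Dual-specificity phosphatases remove phosphate from ERK, p38 or JNK, and Sprouty and Spred proteins block the signal between the receptor and Raf, so their transcripts are widely read as a record of recent ERK activity. In hippocampal neurons this loop follows synaptic activity and neurotrophins.

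Each library held between 27272270 and 28257496 estimated counts, and values are given as CPM, counts scaled to a common library size by the trimmed mean of M-values. Gsdmd transcripts were few, with 41 to 63 counts in the WT libraries and 22 to 42 in the KO libraries. The ranges of the genotypes overlapped. These counts are of the whole gene and not of the deleted stretch, so they do not check the deletion. The labels of WT-O2 mouse 4 disagreed: its title and column gave hyperoxia and its treatment field room air. It was kept in WT-O2, and the calls that moved with it are also given with it left out or counted as room air. WT and KO mice carried separate ranges of animal numbers, so genotype and anything else that differed between these ranges cannot be told apart. Nothing in the labels gave sex or litter.

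A gene was called where edgeR's quasi-likelihood test gave a log2 fold change of at least 0.322 in size, p below 0.05 and a Benjamini-Hochberg adjusted p (q) below 0.1 over 16637 genes. Levels of regional markers differed between genotypes. Of all genes, 10.4% were called between genotypes in room air and 6.86% under hyperoxia. Hippocampal markers were present in all libraries, and their summed level ranged from 599.5 to 972.2 CPM in WT and from 1247 to 1569 CPM in KO mice. They were called higher for 10 of 10 in KO-RA and 6 of 10 in KO-O2. All 8 striatal markers were called lower in KO mice under both exposures, and their sums spanned 445.7 to 627.8 CPM for WT-RA and 290.9 to 704.9 for WT-O2, but 72.58 to 176.9 for KO-RA and 85.03 to 99.41 for KO-O2. The sums of WT and KO mice did not overlap. Thalamic markers were called lower for 4 of 8 in KO-RA and 5 of 8 in KO-O2, with Shox2 and Gbx2 near 0 in KO (mean of at most 0.109 CPM). In room air the thalamic sums of the genotypes overlapped, at 114.8 to 657 CPM for WT-RA and 127.8 to 141.4 for KO-RA. Under hyperoxia they did not, at 198.4 to 484 CPM for WT-O2 and 142.1 to 149.6 for KO-O2. No marker of these lists was at 0 in every library of a group. Oligodendrocyte lineage markers were called lower for 6 of 8 in KO-RA and 4 of 8 in KO-O2. Of 6 excitatory neuron markers 3 were called higher in both exposures and 2 lower in KO-RA. GABAergic neuron markers were called lower in KO mice for 3 of 6 under room air and 2 of 6 under hyperoxia. Among 7 astrocyte markers, Slc1a3 was called higher in KO mice under both exposures. Gfap was called higher under room air alone, and Slc1a2 under hyperoxia alone. For microglia, endothelial cells, mural cells and choroid plexus edgeR called 0 markers, and DESeq2 called 1 mural marker in KO-RA. In room air 4 of 6 mural and 2 of 7 endothelial markers had an unadjusted edgeR p below 0.05, beside 23.5% of all genes. For microglia and choroid plexus it was 0. Under hyperoxia it was 1 of 7 for microglia and for endothelial cells and 0 for the other 2 lists, beside 18.7%. In whole tissue, fewer cells of a type and less RNA per cell cannot be told apart.

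The phosphatases are close relatives, and the coding sequence around their catalytic site is shown because Dusp1 and Dusp4, the most alike here, were the 2 members that edgeR called between genotypes as reported, in opposite directions. Each line gives 60 bases of the coding strand, taken from the GRCm38 transcript annotation, with the codons of the phosphatase signature in capitals.

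Dusp1: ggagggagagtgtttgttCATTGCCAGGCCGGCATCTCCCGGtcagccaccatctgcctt
Dusp4: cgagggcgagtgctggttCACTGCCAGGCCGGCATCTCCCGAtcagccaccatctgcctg
Dusp5: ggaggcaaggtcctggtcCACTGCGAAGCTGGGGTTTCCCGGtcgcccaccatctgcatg
Dusp6: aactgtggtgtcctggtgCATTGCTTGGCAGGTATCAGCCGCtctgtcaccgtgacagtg

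The capitals of Dusp1 and Dusp4 matched at 22 of 24 bases, and the other pairs at 13 to 17. Over whole transcripts the members were distinct: no stretch of 31 bases was shared between any of them, and Dusp1, Dusp4, Dusp6, Spry4, Ier2 and Btg2 shared none with another gene. Spry2, Spred1 and Sik1 shared at most 0.878% of theirs. Dusp5 stood apart, since 21.2% of its 31-base stretches also lie in an antisense transcript that overlaps it, which was not among the rows used here. Strand use was not given in the sources used here, so the Dusp5 counts may include reads of that transcript.

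Promoter windows were available from RefSeq (GRCm38.p6) for 6 of the 10 members. The windows of Dusp6 and Spry2 are shown because these had the smallest p of the members in the comparison of WT-O2 with WT-RA, and that of Dusp1, chosen after its values were seen, because it was called between genotypes. Each is the 250 bases before the start site, read 5′ to 3′ on the gene's strand. Both strands were searched for the cAMP response element (CRE) TGACGTCA and its half-site TGACG, which lies inside it, the AP-1 site TGANTCA, the EGR site GCGTGGGCG, the ETS core CGGAAG and the CArG box, and matches are in capitals. The Dusp6 window is chr10:99262981-99263230 on the plus strand, Spry2 is chr14:105896820-105897069 on the minus strand, and Dusp1 is chr17:26508473-26508722 on the minus strand.

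Dusp6: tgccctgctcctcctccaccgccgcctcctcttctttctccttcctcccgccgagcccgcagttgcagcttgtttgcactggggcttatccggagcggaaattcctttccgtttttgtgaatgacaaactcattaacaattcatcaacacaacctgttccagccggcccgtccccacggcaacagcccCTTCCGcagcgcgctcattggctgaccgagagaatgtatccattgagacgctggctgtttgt
Spry2: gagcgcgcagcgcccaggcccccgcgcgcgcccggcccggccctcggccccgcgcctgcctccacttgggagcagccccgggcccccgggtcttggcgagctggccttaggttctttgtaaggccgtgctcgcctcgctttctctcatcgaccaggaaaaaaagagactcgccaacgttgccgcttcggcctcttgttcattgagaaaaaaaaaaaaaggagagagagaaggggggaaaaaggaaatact
Dusp1: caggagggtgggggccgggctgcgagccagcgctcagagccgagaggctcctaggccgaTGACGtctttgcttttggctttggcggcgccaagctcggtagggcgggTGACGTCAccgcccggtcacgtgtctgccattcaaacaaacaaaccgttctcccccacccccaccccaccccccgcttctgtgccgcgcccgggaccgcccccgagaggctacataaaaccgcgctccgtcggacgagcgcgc

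The Dusp6 window held an ETS core 62 to 57 bases before the start, read on the other strand, as did 13.6% of 32851 mouse promoter windows of the same length. No searched motif was found in the Spry2 window. The Dusp1 window held a CRE 143 to 136 bases before the start, which 1.55% of windows had, and a further half-site 191 to 187 bases before it (17.8% of windows). Of the other members with a window, Btg2 also held a CRE, 166 to 159 bases before its start, Spred1 held an ETS core, and Dusp5 held a pair of neighbouring CArG boxes, where 1.47% of windows held at least 1, and a CRE half-site 55 to 51 bases before its start. AP-1 and EGR sites, found in 6.75% and 0.536% of windows, were absent from the windows of these 6 members. A match to these letters is a description and no evidence of binding.

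The effect of hyperoxia in WT mice was examined first. Dusp6, Spry2 and Spry4 had lower means after hyperoxia and Sik1 a higher one, but edgeR called 0 members. Of all genes tested, 0.643% were called, or 13 to 272 genes in place of 107 when single WT mice were left out. At an unadjusted p below 0.05 there were 4 of the 10 members, 3 lower and 1 higher, against 12.2% of all genes, and DESeq2 called 2 of them, Dusp6 and Spry2, against 2.21% of its genes. The median log2 fold change of the members was -0.19, beside -0.0058 over all genes.

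Dusp6, the cytoplasmic phosphatase that acts on ERK alone, was at 45.3, 53.1, 59.8 and 46.9 CPM in the WT-RA mice and at 37.6, 42.3, 40.5 and 33.7 CPM in the WT-O2 mice. Every WT-O2 mouse was below every WT-RA mouse, which held for 1 of the 10 members and for 5.99% of all genes in either direction. The log2 fold change was -0.41 ± 0.11 (SE), with edgeR q = 0.148, and DESeq2 gave q = 0.0365. The 95% interval ran from -0.66 to -0.17. The exact permutation test gave p = 0.0286, the smallest that 4 against 4 mice allow. Without WT-O2 mouse 4 the log2 fold change was -0.35 (edgeR q = 0.251), and with that mouse counted as room air it was -0.25 (edgeR q = 0.595).

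Spry2, an inducible inhibitor of receptor tyrosine kinase signalling, was at 28.4, 33.3, 41.2 and 41.5 CPM in WT-RA and at 29.5, 29.3, 28.6 and 25.2 CPM in WT-O2. The groups overlapped through WT-RA mouse 1 alone, which was within the range of the WT-O2 mice. The log2 fold change was -0.36 ± 0.12 (edgeR q = 0.215), and DESeq2 gave q = 0.0956. Without WT-O2 mouse 4 it was -0.31, and with that mouse counted as room air -0.22 (edgeR q = 0.636). Spry4, of the same family, averaged 16.8 ± 2.01 CPM (SD, n = 4) in WT-RA and 14.0 ± 1.251 in WT-O2, with a log2 fold change of -0.26 and edgeR q = 0.388. Spred1, which holds neurofibromin at the membrane to restrain Ras, was the steadiest member, with all 14 libraries between 89.2 and 115 CPM and a log2 fold change of -0.10 (95% interval -0.24 to 0.038).

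Sik1, a cAMP-induced kinase that restrains the CREB coactivators, was the one member with a higher mean at an unadjusted p below 0.05. It was at 20.4, 17.4, 14.5 and 14.3 CPM in WT-RA and at 19.1, 19.4, 21.0 and 20.4 CPM in WT-O2. The WT-O2 mice lay close together, and the overlap came from WT-RA mouse 1. The log2 fold change was 0.26 ± 0.10 (edgeR q = 0.301). When WT-RA mouse 1 was left out, Dusp6, Spry2 and Sik1 were all called, and their log2 fold changes were -0.46, -0.46 and 0.38. That fit also called more of all genes, 272 of 16590 in place of 107.

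The remaining members showed no difference past the spread between mice. Ier2, an early response gene of growth factor signalling, was at 7.31 to 8.26 CPM in WT-RA and at 5.28, 6.34, 5.84 and 8.45 CPM in WT-O2, where mouse 4 was the highest of all WT mice. Its log2 fold change of -0.29 (edgeR q = 0.424) became -0.44 without that mouse (edgeR q = 0.157). Btg2, an antiproliferative gene, had a log2 fold change of -0.23 (95% interval -0.52 to 0.054), which became -0.37 without WT-RA mouse 3 (edgeR q = 0.135). Dusp1, which acts on p38, JNK and ERK in the nucleus, had -0.14 (-0.40 to 0.12), Dusp4, a nuclear ERK and JNK phosphatase, 0.13 (-0.18 to 0.43), and Dusp5, a nuclear phosphatase of ERK, -0.017 (-0.24 to 0.21). With 1 mouse left out, Dusp1 ran from -0.24 (without WT-O2 mouse 4) to -0.038 (without WT-RA mouse 1) and Dusp4 from 0.021 (without WT-RA mouse 4) to 0.23 (without WT-RA mouse 1), and neither was called. With WT-O2 mouse 4 counted as room air, Ier2 had -0.46, Dusp1 -0.27, Dusp4 0.22, Spry4 -0.15, Btg2 -0.11 and Spred1 -0.015, and 0 members were called.

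**Figure D1:**
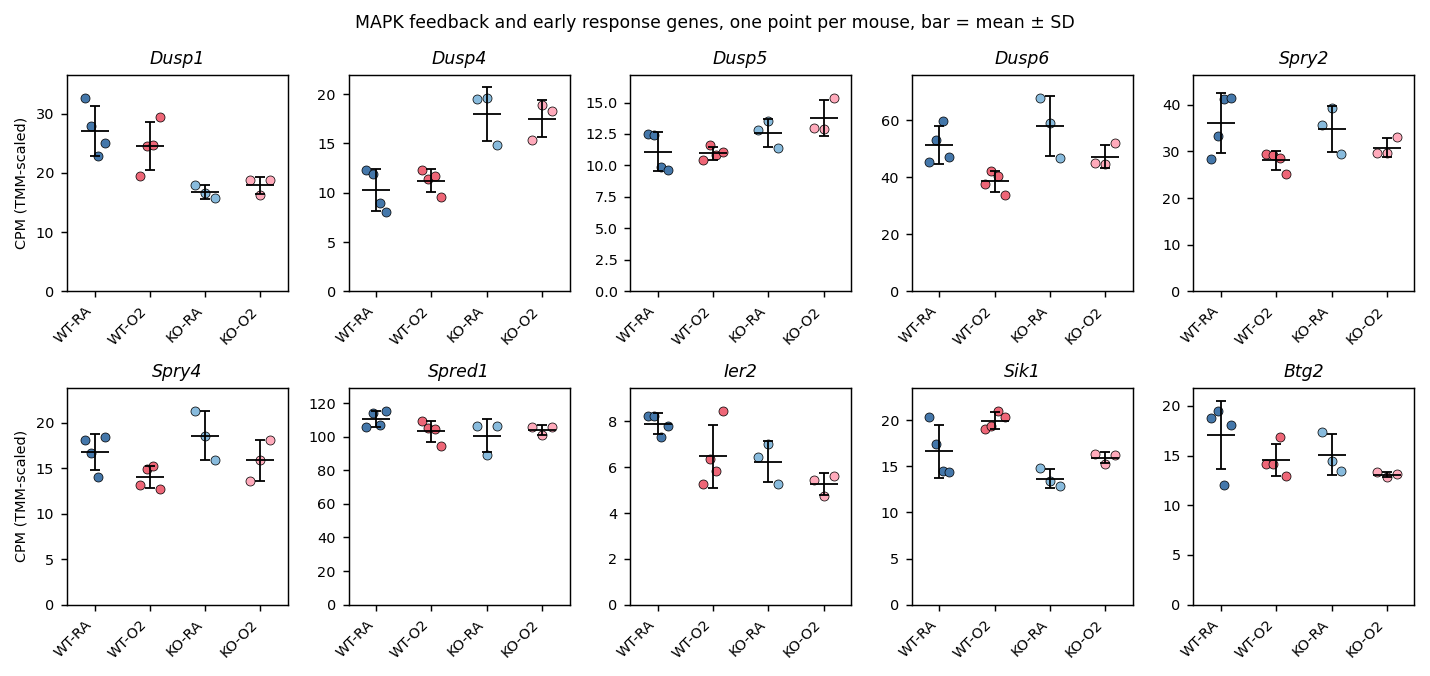
CPM of the 10 genes (vertical axes from 0) in each of the 14 mice by group, with the mean and SD as bars. Dusp6 in WT-O2 lies below all WT-RA mice, Dusp1 is lower and Dusp4 higher in all KO mice than in all WT mice, and Spred1 stays between 89.2 and 115 CPM.

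In KO mice hyperoxia gave no call among the members either. edgeR called 0.012% of all genes and DESeq2 0.0782%, and neither called a member. One member, Dusp6, had an unadjusted edgeR p below 0.05, against 4.86% of all genes. It was at 67.8, 58.8 and 46.9 CPM in KO-RA and at 44.9, 44.8 and 52.0 CPM in KO-O2, so that KO-RA mouse 3 lay among the exposed mice. The log2 fold change was -0.29 ± 0.13 (edgeR q = 0.997), and it was -0.16 without KO-RA mouse 1 and -0.42 without KO-RA mouse 3. Sik1 was at 14.8, 13.4 and 12.8 CPM in KO-RA and at 16.3, 15.3 and 16.2 CPM in KO-O2, without overlap. Its log2 fold change was 0.22 ± 0.12 (edgeR q = 0.997), and 11.8% of all genes did not overlap between these groups of 3. Btg2 was the other member without overlap, at 13.5 to 17.4 CPM in KO-RA and 12.8 to 13.3 in KO-O2. The exact permutation test cannot go below p = 0.1 with 3 against 3 mice.

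Averaged over the genotypes, 0 members were called by edgeR, against 0.337% of all genes, and 1, Dusp6, by DESeq2, against 0.856%. The unadjusted edgeR p was below 0.05 for 5 members, Dusp6, Spry2, Spry4 and Ier2 with negative and Sik1 with positive log2 fold changes, against 11.8% of all genes. Dusp6 had a log2 fold change of -0.35 ± 0.09 (edgeR q = 0.126), Spry2 of -0.27 ± 0.09 (q = 0.256), Spry4 of -0.24 ± 0.09, Ier2 of -0.27 ± 0.11 (q = 0.346) and Sik1 of 0.24 ± 0.08 (q = 0.245). Without WT-RA mouse 1 edgeR called Dusp6 here as well (-0.38), and 109 of all genes in place of 56. This comparison uses the same mice as those within each genotype.

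Whether the response to hyperoxia differed between genotypes was tested by the interaction. edgeR and DESeq2 called 0 members and 0% of all genes, and 0 members had an unadjusted edgeR p below 0.05, against 4.05% of all genes. The KO response minus the WT response ranged from -0.17 for Dusp4 to 0.24 for Dusp1 on the log2 scale. With 1 mouse left out, that of Dusp4 ran from -0.29 to -0.059 and that of Dusp1 from 0.13 to 0.34. For Dusp6 it was 0.12 with a 95% interval of -0.25 to 0.49 and for Sik1 -0.039 (-0.37 to 0.29), so differences of these sizes were not detectable with 3 or 4 mice in a group.

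Between genotypes in room air, Dusp1 was 1.62-fold lower and Dusp4 1.75-fold higher in KO mice, and these 2 of the 10 members were called, against 10.4% of all genes. DESeq2 called the same 2, against 11.1%. At an unadjusted edgeR p below 0.05 there were 4 members, against 23.5% of all genes. With so few members, nothing particular to the list is read from its count.

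Dusp1 was at 32.7, 27.9, 22.8 and 25.0 CPM in WT-RA and at 18.01, 16.6 and 15.7 CPM in KO-RA. No KO-RA mouse reached the lowest WT-RA mouse. The log2 fold change was -0.69 ± 0.13 (95% interval -0.98 to -0.40, edgeR q = 0.00495). Dusp4 was at 12.3, 11.9, 8.98 and 7.999 CPM in WT-RA and at 19.5, 19.6 and 14.9 CPM in KO-RA, again without overlap. Its log2 fold change was 0.81 ± 0.15 (0.49 to 1.13, edgeR q = 0.00392). For both, the exact permutation test gave p = 0.0286, the smallest that 3 against 4 mice allow. Ier2 was the third member without overlap, at 6.43, 7.03 and 5.27 CPM in KO-RA against 7.31 to 8.26 in WT-RA, where 19.6% of all genes did not overlap. Ier2 (log2 fold change -0.34, edgeR q = 0.184) and Sik1 (-0.28, q = 0.125) were not called, but Sik1 was called without WT-RA mouse 3 or 4 (-0.34 and -0.35), and both were called with WT-O2 mouse 4 counted as room air (Ier2 -0.36 and Sik1 -0.35).

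Under hyperoxia the same 2 members were called, against 6.86% of all genes. Dusp1 was at 19.5, 24.5, 24.6 and 29.4 CPM in WT-O2 and at 18.7, 16.2 and 18.7 CPM in KO-O2, where the lowest WT-O2 mouse lay just above the KO-O2 mice. The log2 fold change was -0.46 ± 0.13 (edgeR q = 0.0625). This call was lost when WT-O2 mouse 2, 3 or 4 or any KO-O2 mouse was left out (-0.49 to -0.35 over these fits), when WT-O2 mouse 4 was counted as room air (-0.36, edgeR q = 0.162), and at q below 0.05. Dusp4 was at 12.3, 11.4, 11.6 and 9.54 CPM in WT-O2 and at 15.4, 18.9 and 18.3 CPM in KO-O2. The KO-O2 mice were all higher, and the log2 fold change was 0.64 ± 0.15 (0.32 to 0.96, edgeR q = 0.0210). The call for Dusp4 held whichever mouse was left out, with log2 fold changes of 0.58 to 0.73.

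More members stood apart under hyperoxia without being called by edgeR. DESeq2 called 3, against 7.92% of its genes, the third being Dusp5 (DESeq2 q = 0.0670). At an unadjusted edgeR p below 0.05 there were 5 members, against 18.7% of all genes. The groups did not overlap for 6 members, Dusp1, Dusp4, Dusp5, Dusp6, Spry2 and Sik1, against 19% of all genes. Dusp5 was at 10.4, 11.6, 10.8 and 11.04 CPM in WT-O2 and at 12.99, 12.9 and 15.4 CPM in the KO-O2 mice, and its log2 fold change was 0.32 ± 0.11 (edgeR q = 0.112). Sik1 was at 15.3 to 16.3 CPM in KO-O2, below all WT-O2 mice, with a log2 fold change of -0.32 ± 0.11 (edgeR q = 0.105). Dusp6 had 0.29 (edgeR q = 0.204). Spry2, Spry4, Spred1, Ier2 and Btg2 ranged from -0.30 to 0.18 and all had intervals that held 0.

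The ordering of the 4 group means was the same for the 2 called members in reverse. Dusp1 was highest in WT-RA (27.1 ± 4.26 CPM, SD), followed by WT-O2 (24.5 ± 4.04), KO-O2 (17.9 ± 1.47) and KO-RA (16.8 ± 1.17). Dusp4 was highest in KO-RA (18.01 ± 2.72 CPM), followed by KO-O2 (17.5 ± 1.85), WT-O2 (11.2 ± 1.19) and WT-RA (10.3 ± 2.12). Neighbours of the same genotype in these orders overlapped. The genotype differences of both genes went with the striatal marker sums given above. With the striatal and thalamic marker scores as covariates no member was called in either genotype comparison. Dusp1 then had a log2 fold change of -0.31 in room air and -0.035 under hyperoxia, and Dusp4 of 0.18 and 0.028. The same covariates left 3 and 1 calls among all genes, and the 2 scores carried 0.911 of the variance of genotype (R2), so that marker content and genotype cannot be told apart in these mice.

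**Figure D2:**
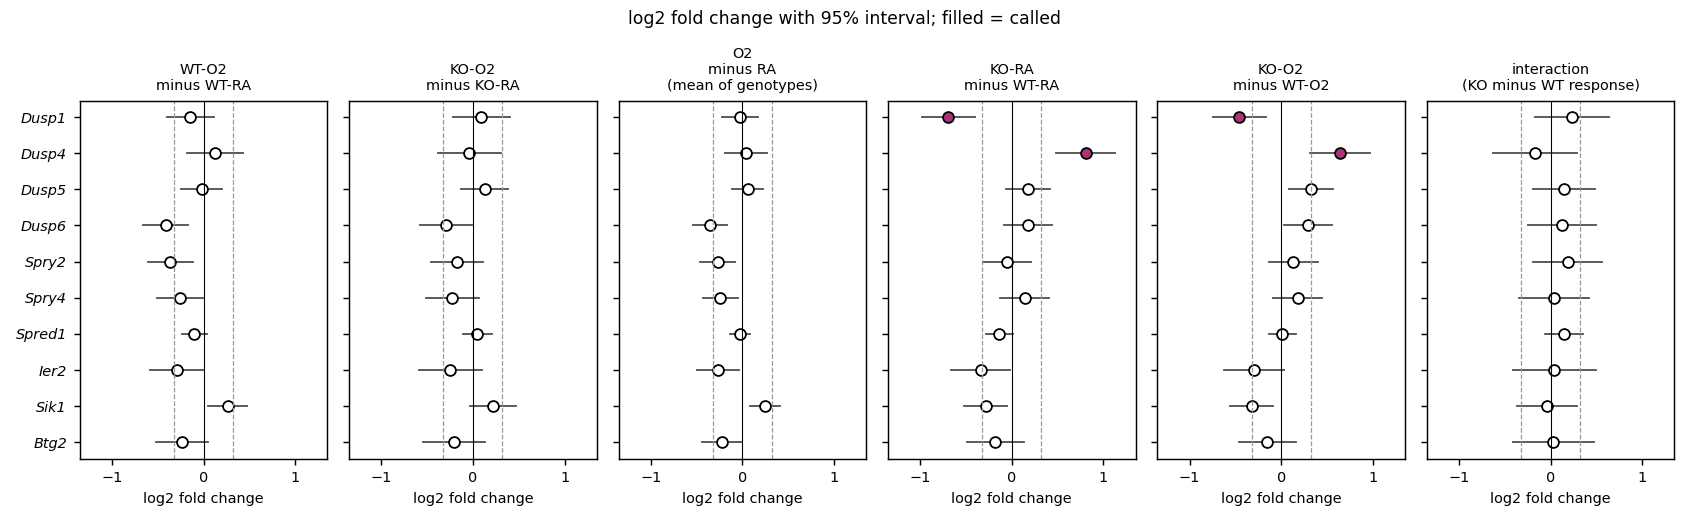
log2 fold change of each gene with its 95% interval in the 6 comparisons, with dashed lines at the call threshold of 0.322 and filled points where called. Dusp1 and Dusp4 are filled in both genotype comparisons (-0.69 and 0.81 in room air), and no point is filled in the exposure comparisons or the interaction.

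Leaving out single mice or changing the test moved the calls for Dusp6 and Spry2 more than their values. Over 15 alternatives the log2 fold change of Dusp6 in WT mice stayed between -0.46 and -0.25 and was called in 3, and that of Spry2 stayed between -0.46 and -0.22 and was called in 3. For Dusp1 and Dusp4 in room air, 13 of 14 alternatives kept the call, and the one that lost it was the marker covariates.

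**Figure D3:**
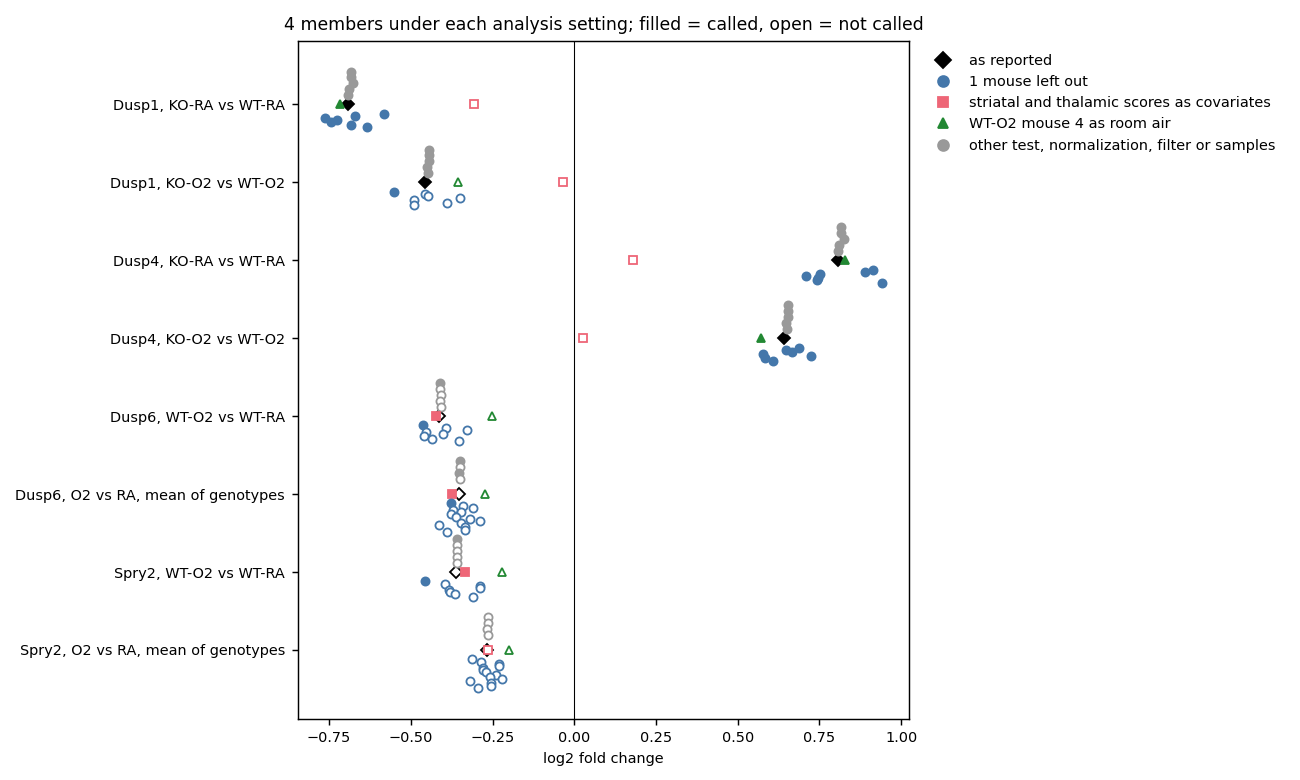
log2 fold change of 4 genes (horizontal axis) as reported and under each alternative, with filled symbols where called. The values of Dusp1 and Dusp4 between genotypes move towards 0 with the marker scores as covariates (to 0.18 for Dusp4 in room air), and those of Dusp6 and Spry2 stay negative throughout.

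The rest of the pathway was examined by 9 lists of genes. In WT mice edgeR called 4 of 12 immediate early transcription factors lower after hyperoxia and 0 higher, beside 0.643% of all genes. DESeq2 called 9 of 12, beside 2.21%, and the median log2 fold change of the list was -0.68. Fos went from 17.2 ± 1.91 to 8.08 ± 1.37 CPM (log2 fold change -1.09, edgeR q = 0.00522), Fosb had -0.90, Egr1 -0.85 and Npas4, an activity-dependent factor of neurons, -1.22. In KO mice edgeR called Fos alone among the pathway genes, from 11.5 ± 1.30 to 4.91 ± 0.333 CPM (-1.22, edgeR q = 0.0121), and DESeq2 called Fos and Fosb. Averaged over genotypes, edgeR also called Egr2 (-0.91). Outside this list, Tob1 (-0.58) and Ier5 (-0.60), relatives of Btg2 and Ier2, and Phlda1 (-0.40), a gene induced by ERK, fell in WT mice, and Il17rd, a membrane inhibitor of FGF signalling, rose (0.49). All 8 other MAPK phosphatases had negative log2 fold changes in WT mice, with a median of -0.25, as did 8598 of all 16637 genes. Of these 8 edgeR called 0, DESeq2 called 1, Dusp10, and 3 had an unadjusted edgeR p below 0.05, beside 12.2% of all genes. In KO mice 5 of the 8 had positive values, with a median of 0.034. There 0 had an unadjusted edgeR p below 0.05, beside 4.86% of all genes. The interaction was positive for all 8, with a median of 0.31, and for 8469 of all 16637 genes. Of the 8, 2 had an unadjusted edgeR p below 0.05, beside 4.05% of all genes, and edgeR and DESeq2 called 0. The growth factor receptors, the Ras to ERK core, the Ras GTPase activators and the p38 and JNK kinases had 0 calls by edgeR and 0 by DESeq2 in WT hyperoxia. In these lists 3 of 18, 0 of 12, 1 of 6 and 4 of 10 genes had an unadjusted edgeR p below 0.05, beside 12.2% of all genes.

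These pathway calls depended on how WT-O2 mouse 4 was treated. Among all genes, WT hyperoxia gave 107 calls both with and without it, and 6 with it counted as room air. Of the 8 pathway genes called by edgeR in WT mice, 6 were called without it, and the calls for Phlda1 (-0.41, edgeR q = 0.101) and Ier5 (-0.58, edgeR q = 0.141) were lost. With that mouse counted as room air 0 of the 8 were called, although each kept its direction, such as Fos at -1.05 (edgeR q = 0.122) and Il17rd at 0.50 (edgeR q = 0.136). Fos in KO mice also lost its call under that setting (edgeR q = 0.59), although that mouse is in neither KO group and its value stayed at -1.22. Calls among all genes in KO mice went from 2 to 0. Averaged over genotypes edgeR called 7 pathway genes, of which 6 stayed called without the mouse, when Egr2 was lost (-0.89, edgeR q = 0.138). With it as room air 1 of the 7 stayed called, Fos (-1.13, edgeR q = 0.0140). Calls among all genes were 56 as reported, 43 without the mouse and 1, Fos, with it as room air. The calls for Fosb, Egr1, Egr2, Npas4, Tob1 and Phlda1 were lost, with edgeR q from 0.146 to 0.404. Their log2 fold changes were then -0.85, -0.55, -0.82, -0.73, -0.42 and -0.31, beside -0.89, -0.64, -0.91, -0.87, -0.45 and -0.33 as reported.

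Between genotypes 2 of the 12 genes of the Ras to ERK core were called in each exposure, beside 10.4% of all genes in room air and 6.86% under hyperoxia. The scaffold Ksr1 was higher in KO mice (log2 fold change 0.53 in room air and 0.54 under hyperoxia), and Mapk3, which encodes an ERK, was lower (-0.36 and -0.46). The list's median was near 0 in both (-0.012 and -0.011). Of the receptors, Fgfr1, an FGF receptor, was higher in KO mice (155 ± 6.14 vs. 102 ± 10.8 CPM in room air, 0.61, and 0.56 under hyperoxia). In room air edgeR called 3 of 8 other MAPK phosphatases and all 3 were lower, Dusp10 (-0.58), Dusp14 (-0.47) and Dusp16 (-0.43). Under hyperoxia edgeR and DESeq2 called 0 of 8, and 0 had an unadjusted edgeR p below 0.05, beside 18.7% of all genes. The difference between these exposures was not called for any gene.

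Of the immediate early factors, 5 of 12 were called between genotypes in room air, beside 10.4% of all genes, and 3 of 12 under hyperoxia, beside 6.86%. In room air 3 were lower in KO mice, Fos (-0.59), Egr1 (-0.55) and Npas4 (-1.01), and 2 were higher, Nr4a3 (0.63) and Egr3 (0.35). With WT-O2 mouse 4 counted as room air all 3 lower calls were lost, for Fos (-0.45, edgeR q = 0.13), Egr1 (-0.40, edgeR q = 0.257) and Npas4 (-0.81, edgeR q = 0.13), and both higher ones stayed. Under hyperoxia 1 was lower, Fos (-0.72), and the same 2 were higher (0.52 and 0.39). Of the 6 other Sprouty, Spred and receptor-level inhibitors tested, Spred2 (0.33) and Spred3 (0.33), relatives of Spred1, were higher in KO-O2, and Lrig1 was lower (-0.38). Also called and lower in KO-RA were Phlda1 (-0.43), Rps6ka2 (-0.36), an ERK-activated kinase, Erbb3 (-1.69), a receptor rich in oligodendrocytes, and Igf1r (-0.39). In KO-O2 Rps6ka2 (-0.54), Rps6ka5 (-0.41) and Erbb3 (-1.27, edgeR q = 0.0635) were lower. Of the 12 pathway genes called under hyperoxia, 6 were called without WT-O2 mouse 4 (Fgfr1, Ksr1, Mapk3, Rps6ka2, Rps6ka5 and Fos). The calls lost were Erbb3 (then -0.98), Nr4a3 (0.42), Egr3 (0.33), Lrig1 (-0.33), Spred2 (0.27) and Spred3 (0.27), each in the same direction. With that mouse counted as room air 5 of the 12 were called, when Fos was also lost (-0.63, edgeR q = 0.139). Calls among all genes under hyperoxia went from 1142 to 800 without the mouse and to 766 with it as room air. With it as room air, 15 of the 20 called in room air stayed called, and calls among all genes went from 1738 to 1821. The marker sums given above moved with genotype here too, and their part in these differences was not tested gene by gene.

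**Figure D4:**
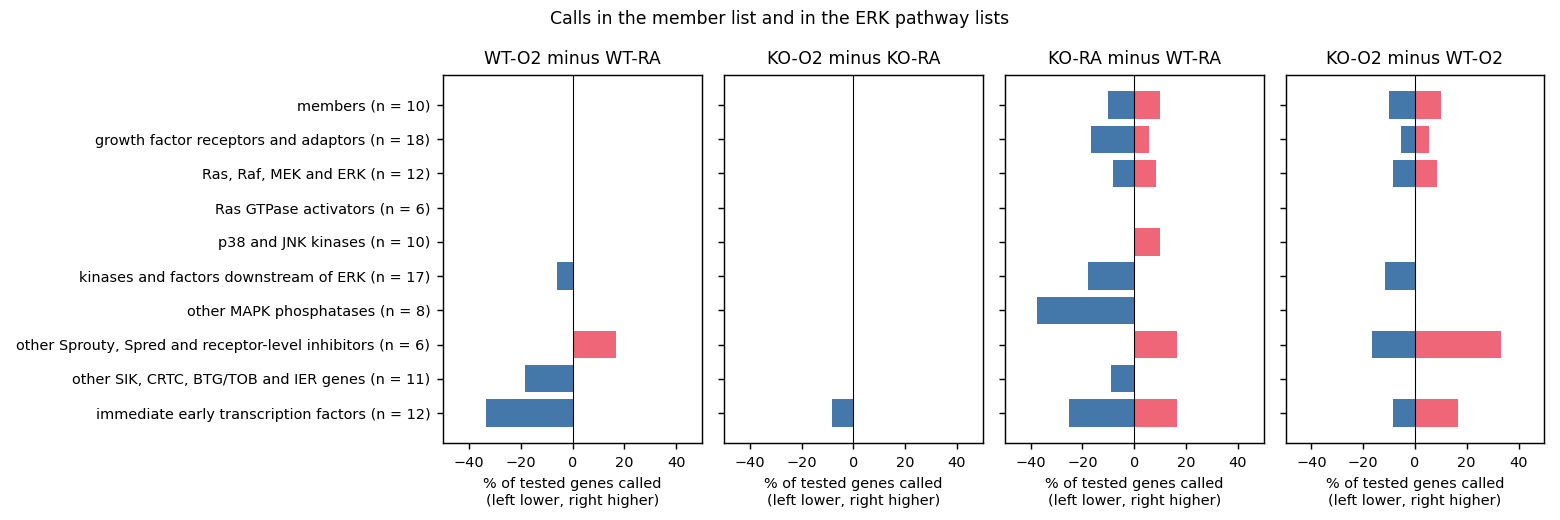
Percent of tested genes called lower (left, blue) or higher (right, red) in the 10 members and in 9 lists of the ERK pathway in 4 comparisons, with the number tested beside each list. In WT hyperoxia the bar of the immediate early factors stands for 4 of 12 genes called lower, and the members have no bar in either exposure comparison.

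After each library's group mean was subtracted, the genes whose log2 CPM went most closely with Dusp1 over the 14 libraries were Ntsr2, a neurotensin receptor (Pearson r = 0.948, Spearman rho = 0.934), and Capn2, a calpain (r = 0.942, rho = 0.864). For Dusp4 they were Prr19 (r = 0.936, rho = 0.864) and Iqgap2, a scaffold protein (r = 0.881, rho = 0.763). Among the members, the closest pairs were Dusp1 with Ier2 (r = 0.78), Dusp1 with Sik1 (r = 0.769), Dusp4 with Dusp5 (r = 0.738), Dusp5 with Sik1 (r = 0.735) and Spry4 with Btg2 (r = 0.713). Dusp4 with Sik1 had r = 0.65 and Dusp6 with Spry2 r = 0.636. The most negative pairs were Spry2 with Sik1 (r = -0.645), Spred1 with Ier2 (r = -0.605) and Dusp1 with Spry2 (r = -0.547). These are descriptions over 14 libraries that share tissue content and dissection, and the highest of many genes were taken.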

How the data were processed

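Poly(A) RNA of 14 hippocampi was sequenced as paired-end reads. The authors deposited estimated counts per gene for all mice in 1 table, made with kallisto against GRCm39. Counts were rounded, and 0 columns were left without a sample. Genes were filtered with filterByExpr, scaled by TMM and tested with edgeR 4.0.16 (R 4.3.3) by a quasi-likelihood fit with 1 coefficient per group over all 14 libraries, and with DESeq2 1.42.0 as an alternative. CPM values use TMM-scaled library sizes, and log2 CPM a prior count of 2. The 95% intervals give the uncertainty of each log2 fold change. They and the p-values judge a difference against the spread between mice within groups only. Every member is named, and in each comparison the called genes of the pathway lists, at most the 8 with the smallest p. Further called genes were named after their values were seen. Between genotypes these were Dusp10, Dusp14, Dusp16, Egr1, Egr3, Npas4 and Nr4a3 in room air, and Erbb3, Lrig1, Egr3 and Nr4a3 under hyperoxia. The members and lists were chosen with earlier results of these data known. The tests were tried on simulated data. Alternatives were other normalization, filters, thresholds and samples, the labels of WT-O2 mouse 4, marker scores as covariates and leaving out each mouse. The pathway lists under DESeq2 and under both other treatments of that mouse were added after seeing the data.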

Additional observations from a re-analysis of the deposited data

Results flagged for a closer look

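Btg2 in room air stood out by 1 mouse. WT-RA mouse 3 was at 12.01 CPM, and the other three were at 18.8, 19.5 and 18.1 CPM. On the log2 CPM scale its gap to the nearest of them was 0.846 of the group's range, above Dixon's 95% critical value for 4 samples. Of 20 such groups examined 1 passed, and chance passes about 1 in 20.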

How the results depend on the processing

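The 60 log2 fold changes (10 members in 6 comparisons) kept their sign under every alternative in 41 cases and turned in at least 1 in 19, none of them called as reported. For WT-O2 vs. WT-RA the count of members called was 0 as reported and 2 with DESeq2 and with marker covariates (Dusp6 and Spry2 in both), and 0 to 3 with 1 mouse left out. Averaged over genotypes it was 1 (Dusp6) with DESeq2, without a filter and with covariates, and 0 to 1 with 1 mouse left out. For KO-RA vs. WT-RA it was 4 (Dusp1, Dusp4, Ier2 and Sik1) with WT-O2 mouse 4 as room air and 0 with covariates, and 2 to 3 with 1 mouse left out. For KO-O2 vs. WT-O2 it was 3 (with Dusp5) with DESeq2 and in the fit on the compared groups alone (Dusp5 0.33, edgeR q = 0.0595), 1 (Dusp4) at q below 0.05, at a fold of 1.5 and with WT-O2 mouse 4 as room air, 0 with covariates, and 1 to 2 with 1 mouse left out. The cause of these shifts was not tested. With WT-O2 mouse 4 as room air the values turned for Spred1 averaged over genotypes (0.017) and in KO-O2 vs. WT-O2 (-0.029), for Spry2 in KO-RA vs. WT-RA (0.038), and in the interaction for Dusp6 (-0.041), Spry4 (-0.078), Sik1 (0.034) and Btg2 (-0.094). With marker covariates they turned for Dusp4 averaged (-0.040), in KO-RA vs. WT-RA for Dusp6 (-0.48) and Spry4 (-0.20), and in KO-O2 vs. WT-O2 for Dusp6 (-0.38), Spry2 (-0.42), Spry4 (-0.16), Spred1 (-0.096) and Ier2 (0.012).

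With 1 mouse left out, ranges across 0 were -0.080 to 0.047 for Dusp5 in WT, -0.16 to 0.043 for Dusp4 and -0.032 to 0.091 for Spred1 in KO, -0.074 to 0.028 for Dusp1 and -0.015 to 0.094 for Dusp4 averaged, -0.15 to 0.068 for Spry2 in KO-RA vs. WT-RA, and -0.022 to 0.040 for Spred1 in KO-O2 vs. WT-O2. In the interaction they were -0.013 to 0.25 for Dusp6, -0.070 to 0.14 for Spry4, -0.070 to 0.20 for Ier2, -0.15 to 0.031 for Sik1 and -0.049 to 0.17 for Btg2. Over all genes, WT hyperoxia gave 107 calls as reported, 310 with DESeq2, 303 with covariates, 20 from the WT libraries alone, 22 at q below 0.05, 46 at a fold of 1.5, 6 with WT-O2 mouse 4 as room air, and 13 (without WT-O2 mouse 2) to 272 (without WT-RA mouse 1) with 1 mouse left out. The average gave 56 calls, 134 with DESeq2, 65 without a filter, 83 with covariates and 16 to 109 with 1 mouse left out. KO-RA vs. WT-RA gave 1738, 1821 with WT-O2 mouse 4 as room air, 3 with covariates and 1076 to 1929 with 1 mouse left out. KO-O2 vs. WT-O2 gave 1142, 1317 with DESeq2 and 1386 in the fit on these groups alone. It gave 791 at q below 0.05, 607 at a fold of 1.5 and 766 with that mouse as room air. It gave 1 with covariates and 675 to 1283 with 1 mouse left out. The fit on the compared groups alone was not run for the average and the interaction, which use all groups. No paired analysis was possible because the groups hold different mice and the labels give no litter. The labels give no replicate numbers either, and mice are numbered here in the order of their samples within each group. Counts per member and library were 129 to 3239.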
